A study of Homo sapiens with 8 samples.

Results

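The HOX cluster genes code for transcription factors that carry a homeodomain, a DNA-binding fold. They stand in 4 clusters, A to D, and were taken here as every row of the deposited table whose symbol is HOX, a cluster letter and a number. This gave 39 genes of 26372 in the table, 11 in HOXA, 10 in HOXB, 9 in HOXC and 9 in HOXD. The cells were BE(2)-M17, labelled M17, a human neuroblastoma cell line that is a single clone. No sample is labelled SH-SY5Y, a second neuroblastoma line named in the culture notes. Both groups hold 4 libraries of total RNA depleted of ribosomal RNA, one from cells left untreated and the other from cells kept for 24 h with 10 ng/ml of the cytokine IFN-γ. The labels name no other agent and no genetic change for either group. The table holds FPKM, fragments per kilobase of transcript scaled to the fragments of a library, so that levels can be set side by side between genes. The design sets treated against untreated cells.

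In the embryo, HOX genes are switched on along the body axis in the order in which they lie in a cluster, low numbers towards the head and high numbers towards the tail. Genes with the same number in different clusters are paralogs, copies that arose when the ancestral cluster was duplicated. HOX proteins bind DNA together with the PBX, MEIS and PKNOX homeodomain proteins. In cells of later stages Polycomb complexes keep silent HOX clusters closed and Trithorax complexes keep active ones open.

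In a transcript of 1 kb a single fragment was worth an estimated 0.0494 to 0.0720 FPKM, depending on the library. Separate cultures are not stated in the labels, so p-values here rest on the spread among these libraries alone, and that spread may be technical. All 10 genes of a list of interferon-response genes were higher in the libraries labelled as treated, with sums of 20.0 to 22.2 FPKM untreated and 2104 to 2266 with IFN-γ. Of 17 markers of noradrenergic neuroblastoma, 16 were tested and 7 of them rose (43.8%, where 13.3% of all genes tested were called higher), with sums of 3876 to 3954 FPKM untreated and 3892 to 4209 with IFN-γ. The largest part of these sums was MYCN, at means of 2003 FPKM untreated and 1817 with IFN-γ. MYCN was lower in every IFN-γ library but was not called (limma adjusted p = 0.239). Of the 17 markers, HAND2 and GATA3, transcription factors of sympathetic neurons, stood at 307 and 116 FPKM untreated. Of 8 fibroblast and mesenchymal markers, none was at 0 in every library and 2 rose (LUM and PDGFRB) and 1 fell (COL1A1) among 5 tested (60% called, where 22.3% of all genes tested were). Their sums were 228 to 234 FPKM untreated and 237 to 298 with IFN-γ, most of it DCN and THY1, while the collagens COL1A2 and COL3A1 reached at most 0.0373 and 0.302 FPKM. T cell, myeloid and endothelial markers summed to at most 1.79 FPKM with CD3E at 0, and epithelial and glial markers to at most 2.71 with KRT5 at 0. The part of these markers in the results on HOX genes was not tested. Among IFN-γ libraries, replicate 4 differed most from the others. The variance of its differences from them was 3.89 to 5.23 times the counting variance, against 1.33 to 1.97 times in the other pairs of libraries.

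The HOXC and HOXD clusters had measured RNA, while nearly all genes of HOXA and HOXB were listed at 0. In HOXA, 10 of 11 genes were listed at 0 in all 8 libraries, and in HOXB 8 of 10. The exceptions were HOXA7, at 0.0251 FPKM in IFN-γ replicate 4, HOXB13, at 0.0159 in the same library, and HOXB7, at 0.0845 in untreated replicate 2. At the depth inferred for those libraries and the length of the transcripts, these values stand for about 1.02, 1.11 and 2.21 fragments. Some genes that every cell uses, such as the histone gene H3F3A, were also listed at 0 in part of the libraries, so an entry of 0 is given here as listed and not as proof of absence.

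In HOXC the genes numbered 4 to 9 were on and those numbered 10 to 13 were near 0. In HOXD the levels were highest from HOXD3 to HOXD9. HOXD1, HOXD11 and HOXD13 had untreated means under 1 FPKM, and HOXD12 was near 0. The untreated means ± SD over 4 libraries (n = 4) were, in HOXC, 30.4 ± 0.868 FPKM for HOXC4, 5.79 ± 0.949 for HOXC5, 19.9 ± 1.00 for HOXC6, 17.4 ± 0.698 for HOXC8 and 3.69 ± 0.161 for HOXC9. The next gene, HOXC10, stood at 0.228 ± 0.122 FPKM. HOXC11 was at 0.0722 and 0.0614 FPKM in IFN-γ replicates 2 and 3 and at 0 in the other 6 libraries. HOXC13 was at 0.0219 in untreated replicate 2 and 0.0510 in IFN-γ replicate 3, and HOXC12 was listed at 0 throughout. The level in HOXD rose from HOXD1 at 0.757 ± 0.0874 FPKM to HOXD3 at 8.72 ± 0.298, HOXD4 at 11.2 ± 0.215 and HOXD8 at 16.2 ± 1.43. Beyond it the level came down through HOXD9 at 9.35 ± 0.463 and HOXD10 at 1.36 ± 0.123 to HOXD11 at 0.473 ± 0.206. HOXD12 was above 0 in 1 library, at 0.117 FPKM in IFN-γ replicate 2, and HOXD13, the gene at the end of the cluster, stood at 0.771 ± 0.324. Beyond the end lies EVX2, a homeobox gene of the same ancestry, which reached at most 0.103 FPKM.

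**Figure D1:**
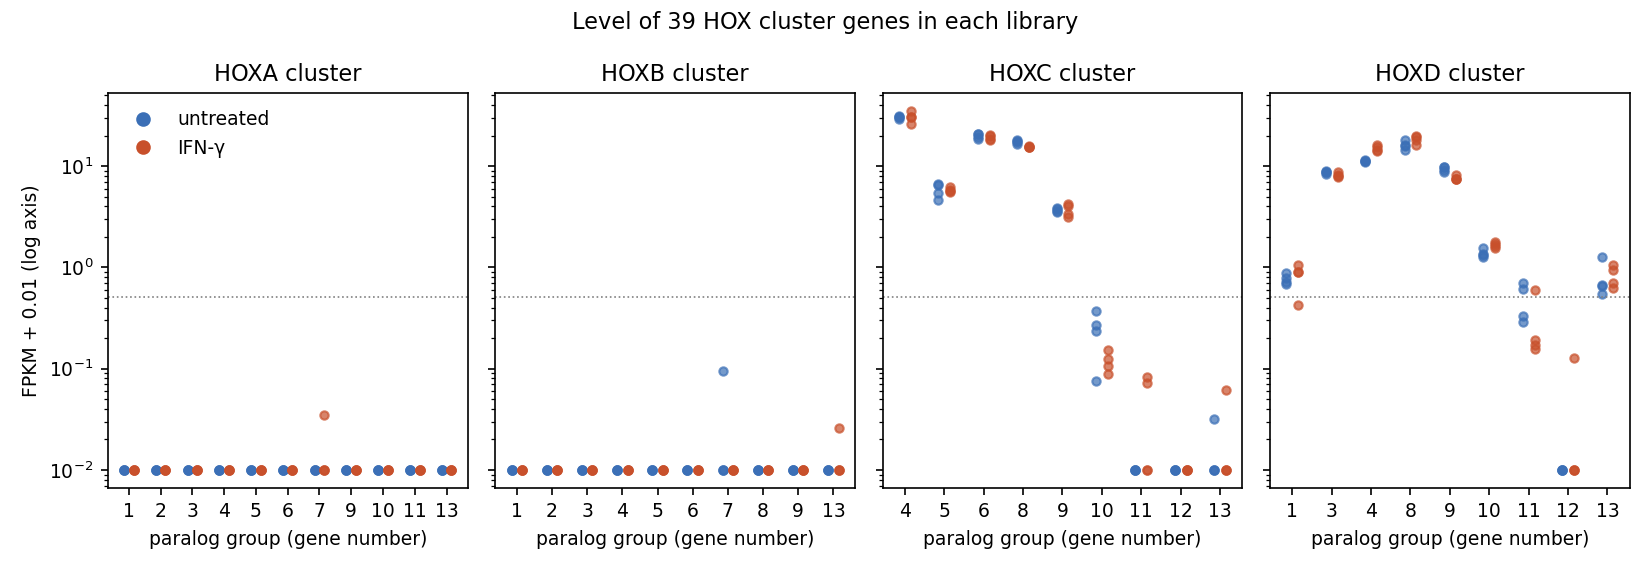
FPKM + 0.01 on a log axis for the 39 HOX genes, 1 panel per cluster, against the gene number, with 1 point per library (untreated in blue, IFN-γ in orange). The dotted line marks the mean of 0.5 FPKM needed for testing. HOXA and HOXB lie on the floor, HOXC drops between HOXC9 and HOXC10, and HOXD peaks at HOXD8.

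Ordered by untreated level, HOXC4 came first and HOXC6 next, with no overlap between them or with the genes below. HOXC8 (16.5 to 18.2 FPKM) and HOXD8 (14.6 to 18.0) overlapped, as did HOXD9 (8.75 to 9.75) and HOXD3 (8.32 to 9.03). HOXD4, HOXC5 and HOXC9 each held a range of their own. At the low end HOXD13 (0.533 to 1.25) overlapped both HOXD10 (1.25 to 1.54) and HOXD1 (0.674 to 0.872). 17.5% of all genes tested had a higher mean than HOXC4. The sum over all 39 genes was 124 to 128 FPKM without IFN-γ and 118 to 134 with it. HOXC held 61.3% of the untreated sum and 58.6% with IFN-γ, and HOXD 38.7% and 41.4%.

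The limma test took in the 13598 genes whose mean reached 0.5 FPKM, and 12 of the 39 HOX genes were among them, 5 of HOXC and 7 of HOXD. The other 27 were too low to test. At a Benjamini-Hochberg adjusted p of 0.05 over all genes tested, 3 of the 12 were called (25.0%), where 22.3% of all genes were. 1 was higher, where the share over all genes was 13.3%, and 2 were lower, where it was 9.05%. The share of 3 in 12 is near that of all genes. HOXD4 rose, and HOXD9 and HOXC8 fell. In 4 of the 12 the values of the groups did not overlap (33.3%), against 28.2% of all genes tested. The median log2 change of the 12 was 0.01, that of all genes tested -0.0047. Changes are given as differences of log2(FPKM + 0.1), a scale on which low genes appear to change less than they do. The median size of a change was 0.104 in the 12 and 0.129 in all genes tested.

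HOXD4 is a member of paralog group 4, whose genes are active in the hindbrain and the neck region of the embryo. Its values were 11.2, 11.1, 11.2 and 11.6 FPKM untreated and 14.3, 14.2, 16.3 and 15.6 with IFN-γ. Every IFN-γ library lay above every untreated one. HOXD4 rose by 0.42 on the log2 scale (SE 0.05, limma adjusted p = 2.9e-04), which is 1.34-fold, and 49.9% of the genes called higher had a larger one. About 263 to 462 fragments stood behind each value. On GRCh38, the assembly that hg38 names, GENCODE release 29 places HOXD4 at chr2:176151222-176153226, forward strand. AC009336.2, a gene model that spans HOXD4 and HOXD3, has no value here. It shares 80.5% of the exonic bases of HOXD4 and 62.2% of those of HOXD3 on the same strand. Whether fragments there came from this model or from the gene itself is uncertain. In this annotation HOXD4 and HOXD3 share no exonic base with each other. HOXD3 itself, a paralog of HOXA3 and HOXB3, which are listed at 0, was not called, at 9.03, 8.82, 8.32 and 8.71 FPKM untreated and 8.21, 7.93, 8.79 and 7.77 with IFN-γ (log2 change -0.09, 95% interval -0.22 to 0.03).

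HOXD9 belongs to paralog group 9, the first of the posterior HOX genes, which act in the trunk and the limb buds. Its values were 8.75, 9.75, 9.22 and 9.69 FPKM untreated and 7.40, 7.43, 8.23 and 7.50 with IFN-γ. All 4 IFN-γ libraries were below all 4 untreated ones, and IFN-γ replicate 3 was the nearest to them. HOXD9 fell by 0.29 on the log2 scale (SE 0.06, limma adjusted p = 0.00517), 1.22-fold, and 58.9% of the genes called lower had a larger one. HOXD9 sits at chr2:176122720-176124937, forward strand, and none of its exonic bases is shared with another annotated gene. The antisense gene HOXD-AS2 shares no exonic base with HOXD9 either.

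HOXC8, a gene of the central part of the cluster that patterns thoracic segments, fell by less. Its values were 16.5, 18.2, 17.6 and 17.4 FPKM untreated and 15.3, 15.8, 15.5 and 15.4 with IFN-γ. The groups did not overlap, and untreated replicate 1 was the nearest to the IFN-γ libraries. HOXC8 fell by 0.17 on the log2 scale (SE 0.04, limma adjusted p = 0.0173), 1.12-fold, and 91.8% of the genes called lower had a larger one. Without untreated replicate 2 or 3 the limma adjusted p was 0.0615 or 0.0521 and the call was lost. HOXC8 sits at chr12:54009106-54012362, forward strand, and shares no exonic base with another annotated gene. In bulk samples such as these, fewer cells that express a gene and less of its RNA per cell cannot be told apart.

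**Figure D2:**
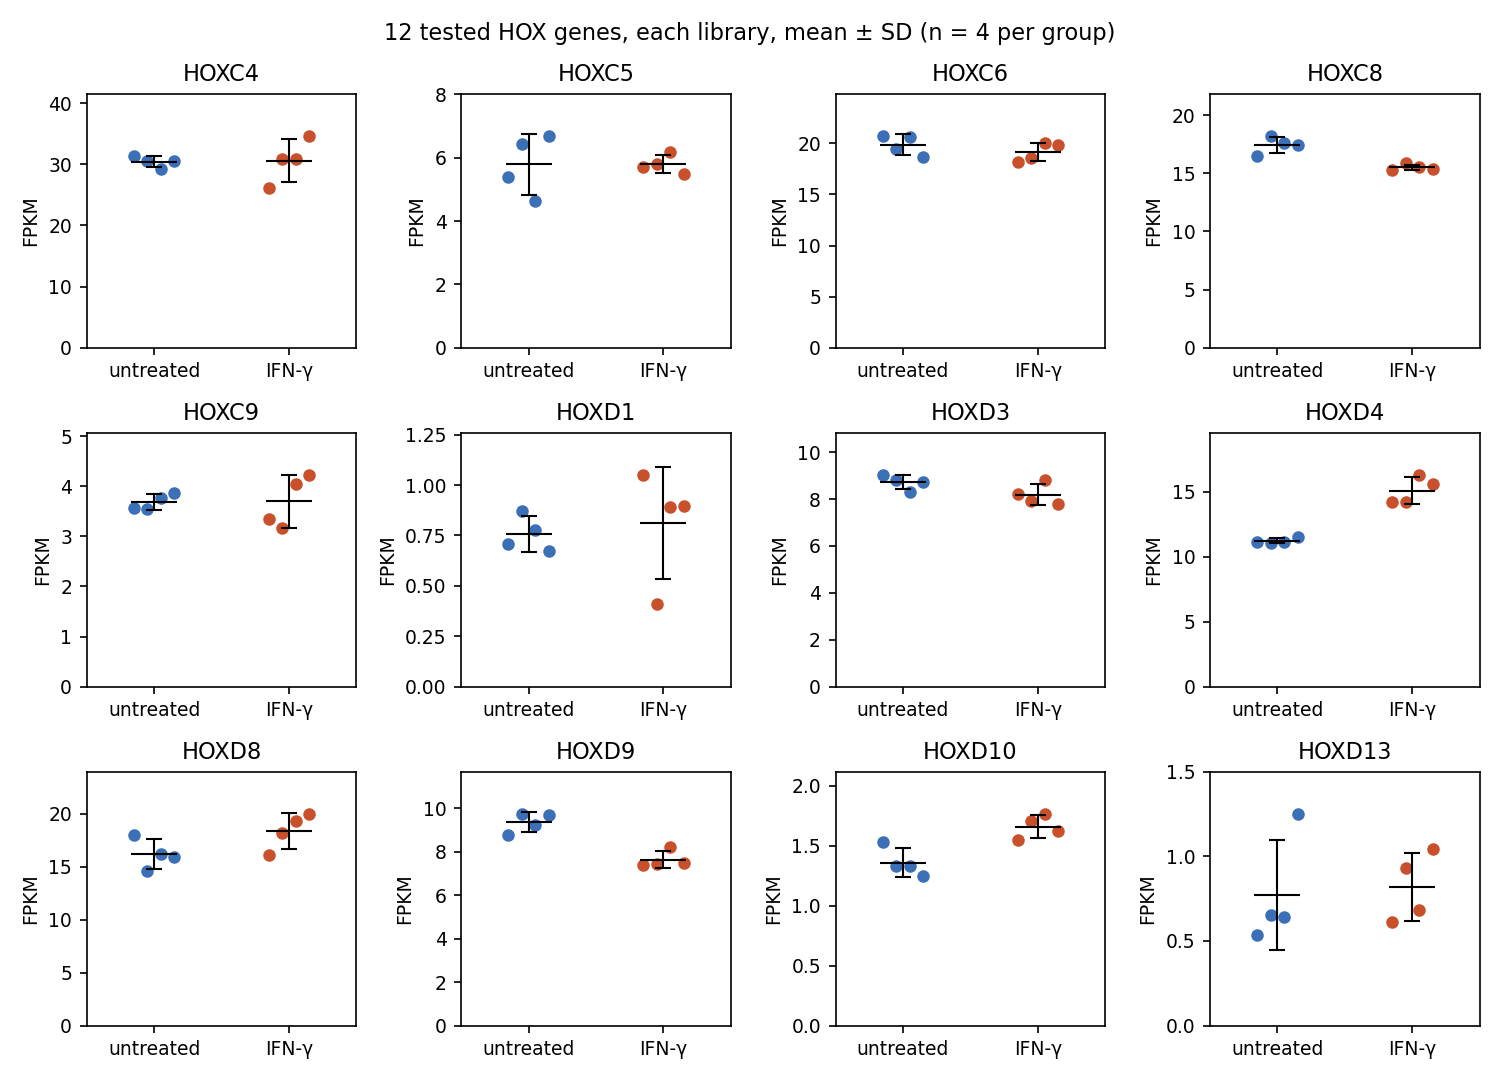
FPKM of the 12 tested HOX genes, 1 panel per gene, 1 point per library, with mean and SD of each group (n = 4); each axis starts at 0. HOXD4 is higher with IFN-γ in all 4 libraries, HOXD9 and HOXC8 lower, and most other genes overlap.

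The other 9 tested genes did not pass the threshold, 6 with a change above 0 and 3 below. HOXD10, a posterior gene expressed in lumbar spinal cord and limb, was at 1.54, 1.33, 1.33 and 1.25 FPKM untreated and 1.55, 1.70, 1.77 and 1.63 with IFN-γ. The groups just failed to overlap, and the log2 change was 0.27 (95% interval 0.03 to 0.51, limma adjusted p = 0.106). It passed when limma was run without its variance trend (limma adjusted p = 0.0286). HOXD8 was at 18.0, 14.6, 16.2 and 15.9 FPKM untreated and 16.1, 18.2, 19.3 and 20.0 with IFN-γ. Its groups overlapped, and the log2 change of 0.18 (limma adjusted p = 0.134) passed without IFN-γ replicate 1 (0.25, limma adjusted p = 0.0439). HOXC4 was at 31.3, 30.5, 29.3 and 30.6 FPKM untreated and 26.1, 30.9, 30.9 and 34.7 with IFN-γ, a log2 change of 0.0026 (95% interval -0.16 to 0.17). HOXC6 was at 20.7, 19.5, 20.7 and 18.7 FPKM untreated and 18.2, 18.6, 20.0 and 19.8 with IFN-γ, a log2 change of -0.05 (interval -0.17 to 0.06). Both genes overlapped between groups across most of their range.

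HOXC5 was at 5.38, 6.43, 4.64 and 6.69 FPKM untreated and 5.71, 5.81, 6.18 and 5.50 with IFN-γ (95% interval of the log2 change -0.23 to 0.26). HOXC9 was at 3.57, 3.54, 3.77 and 3.87 FPKM untreated and 3.35, 3.16, 4.05 and 4.23 with IFN-γ (interval -0.23 to 0.22). The IFN-γ values of HOXC9 spread wider than the untreated ones and enclosed them. The 2 low genes at the ends of HOXD varied most: HOXD1, a gene of the anterior end, was at 0.707, 0.872, 0.776 and 0.674 FPKM untreated and 1.05, 0.412, 0.891 and 0.898 with IFN-γ. HOXD13, which shapes the digits and the genital tubercle, was at 0.533, 0.655, 0.644 and 1.25 FPKM untreated and 0.612, 0.931, 0.686 and 1.04 with IFN-γ. About 11.3 to 38.0 fragments stood behind the values of HOXD1 and 19.3 to 47.3 behind those of HOXD13. Their 95% intervals were -0.53 to 0.59 and -0.47 to 0.70 on the log2 scale. A change as large as that of HOXD4 lies within both. Just under the limit for testing, HOXD11 was at 0.596, 0.699, 0.277 and 0.321 FPKM untreated and 0.162, 0.588, 0.182 and 0.146 with IFN-γ. HOXC10 was at 0.227, 0.357, 0.261 and 0.0648 FPKM untreated and 0.143, 0.113, 0.0963 and 0.0777 with IFN-γ, which is about 2.03 to 13.2 fragments. Neither was tested.

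**Figure D3:**
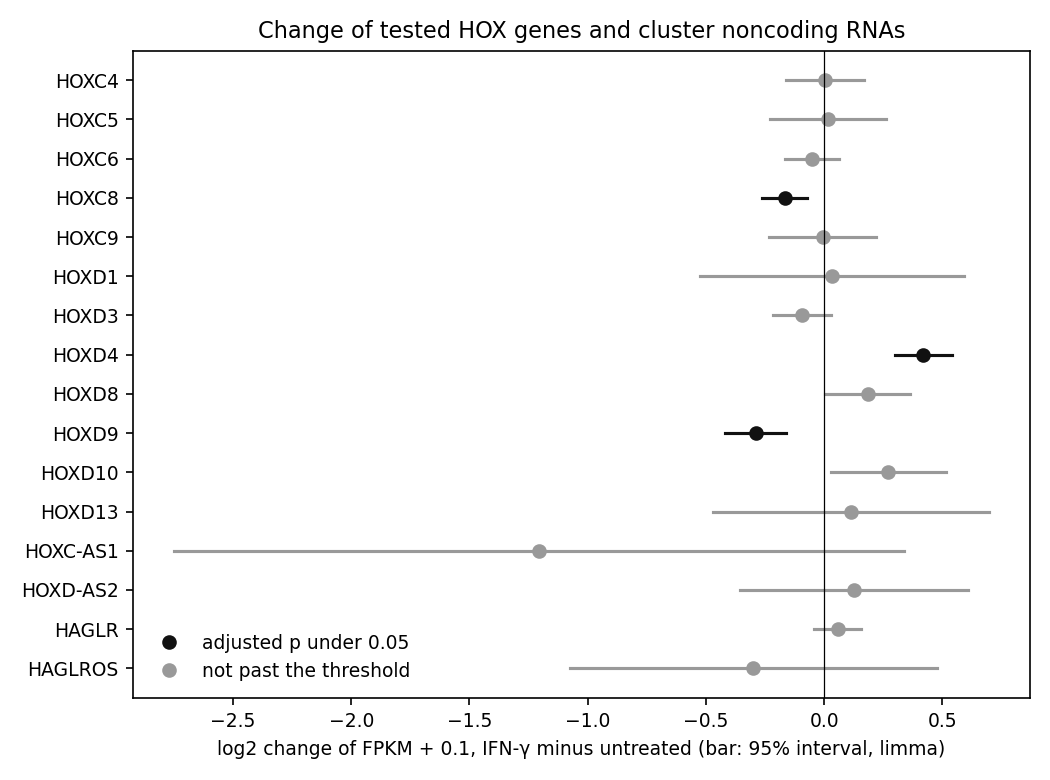
Log2 change of FPKM + 0.1 (IFN-γ minus untreated) with its 95% interval from limma for the 12 tested HOX genes and 4 noncoding RNAs of the clusters. Black marks an adjusted p under 0.05: HOXD4 at 0.42, HOXD9 at -0.29 and HOXC8 at -0.17.

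The directions depend on how libraries are scaled. In TPM the median change of all genes stood at 0.79 (log2). There 9 HOX genes were called, all higher, while HOXC8 and HOXD9 stood at 0.63 and 0.51 and were not called. Relative to that shifted median the changes were 0.43 for HOXD4, -0.28 for HOXD9 and -0.15 for HOXC8. In TPM without short RNA genes, and with quantile normalization or median-of-ratios scaling, the 3 genes called were HOXD4, HOXD9 and HOXC8 again, in their original directions.

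A ratio between paralogs within a library does not depend on any factor by which that library is scaled. Paralog groups 4, 8 and 9 have a tested gene in both HOXC and HOXD. The homeoboxes of group 9, the bases that code for the homeodomain, are shown because the pair makes almost the same DNA-binding fold from RNAs that reads of 150 nt can tell apart. Each was read from the GENCODE release 29 transcripts on GRCh38, on the forward strand within 1 coding exon, and capitals mark the bases at which the members of the pair differ.
HOXC9 (chr12:54002465-54002644): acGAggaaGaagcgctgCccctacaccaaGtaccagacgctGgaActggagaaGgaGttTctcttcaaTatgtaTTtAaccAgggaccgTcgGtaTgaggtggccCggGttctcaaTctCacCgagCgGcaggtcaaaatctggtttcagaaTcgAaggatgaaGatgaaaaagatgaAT
HOXD9 (chr2:176123969-176124148): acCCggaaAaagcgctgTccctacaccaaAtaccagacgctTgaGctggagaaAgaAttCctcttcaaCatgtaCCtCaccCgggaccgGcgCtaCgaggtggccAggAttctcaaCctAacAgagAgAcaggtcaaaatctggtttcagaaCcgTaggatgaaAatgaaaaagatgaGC

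Of the 180 bases, HOXC9 and HOXD9 differed at 30. The homeodomains coded by these bases differed at 2 of 60 residues, and 23 of the base differences fell on the third base of a codon. The longest identical run inside the homeobox was 23 bases. Over whole transcripts, the longest exact run that a tested member shared with any HOX gene of another cluster was 62 bases, between HOXD3 and HOXB3, against reads of 150 nt. For HOXD4 it was 38 bases, for HOXD9 40 and for HOXC8 26. Over all 39 genes, homeoboxes of the same paralog group were 69.4 to 90.6% identical (median 81.7%, 42 pairs), and those of different groups 47.8 to 91.1% (median 60.6%, 699 pairs).

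Within a library, HOXD4 stood at 0.357, 0.363, 0.381 and 0.378 of HOXC4 untreated and at 0.545, 0.461, 0.529 and 0.450 with IFN-γ. The ratio was higher in all 4 IFN-γ libraries, by 0.42 on the log2 scale. HOXD9 stood at 2.45, 2.76, 2.44 and 2.50 times HOXC9 untreated and at 2.21, 2.35, 2.03 and 1.78 times with IFN-γ, lower in all 4 libraries (log2 ratio change -0.28). HOXC4 and HOXC9 had log2 changes of 0.0026 and -0.0065, so these ratios repeat the changes of HOXD4 and HOXD9. HOXD8 stood at 1.09, 0.799, 0.921 and 0.909 of HOXC8 untreated and at 1.05, 1.15, 1.24 and 1.30 with IFN-γ (log2 ratio change 0.35). Here untreated replicate 1 lay among the IFN-γ libraries. The pairs were chosen with the changes of their members known, so the ratios are given without a test.

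**Figure D4:**
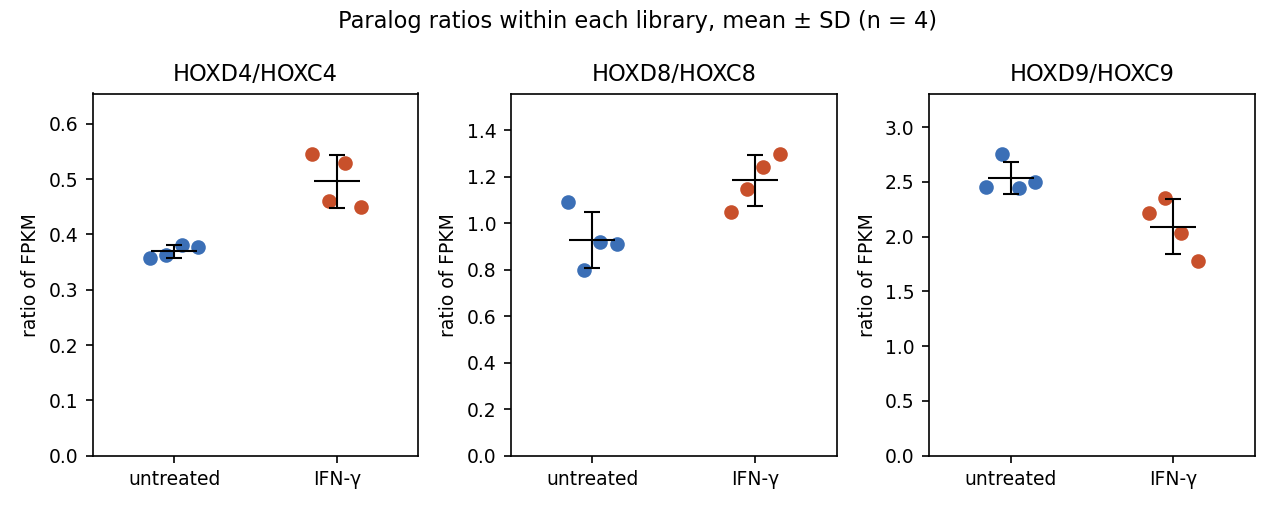
Ratio of FPKM between the HOXD and the HOXC paralog in each library, with mean and SD (n = 4), for groups 4, 8 and 9; each axis starts at 0. HOXD4/HOXC4 is higher and HOXD9/HOXC9 lower in all 4 IFN-γ libraries, while HOXD8/HOXC8 overlaps in 1 untreated library.

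HOXC4, HOXC5 and HOXC6 share exonic bases, so the division of fragments among them is uncertain. 11.2% of the exonic bases of HOXC4 lie in HOXC5 and 17.8% in HOXC6 on the same strand. HOXC5 also shares 28.9% of its exonic bases with AC012531.2, a model with no value here. HOXC9 shares 4.35% with HOXC6 and HOXD10 16.8% with HOXD11, again on the same strand, so the same limit holds there. RefSeq (GRCh38.p14) gives HOXC4 and HOXC5 one and the same start, though their untreated levels were 30.4 and 5.79 FPKM. In the 250 bases before 27 RefSeq starts of 20 HOX genes, HOXC8 and HOXD9 not among them, a pair of GAAA runs spaced by NN, the form of an interferon-stimulated response element, was searched for on both strands. It was in none of the 27, against 3.02% of 35116 starts of all genes. TGATNNAT, the form of a joint PBX and HOX site, was in 3 of 27 (HOXA2, HOXB1 and HOXD11) and in 6.47% of all. These counts describe the letters in these windows only. Of the 27 starts 8 belong to tested members, HOXD4 among them. HOXC4 and HOXC5 have the same window. The HOXD4 window, chr2:176151300-176151549, lies inside the GENCODE span of HOXD4 and overlaps its exons. Bases before the GENCODE start of HOXD4 were therefore not searched. Windows of several other members also overlap annotated exons.

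Most noncoding RNAs of the clusters were listed at 0. Of 24 on the list that were in the table, 19 were at 0 in all 8 libraries, among them HOTAIRM1 and HOTTIP of HOXA, HOXB-AS1 and HOXB-AS3 of HOXB and all 6 microRNA genes. The library type does not measure mature microRNAs. HOTAIR, a long noncoding RNA of HOXC, reached at most 0.0796 FPKM. 4 were tested and limma called none (0 also at an unadjusted p under 0.05, median log2 change -0.12). HAGLR, which runs antisense between HOXD3 and HOXD1, was between 12.4 and 13.1 FPKM untreated and between 12.6 and 13.7 with IFN-γ. HAGLROS, also of HOXD, was at 1.60, 1.69, 1.36 and 1.49 FPKM untreated and 1.07, 1.57, 2.41 and 0.532 with IFN-γ. HOXD-AS2, which overlaps HOXD3 on the other strand, was at 8.43, 8.21, 4.67 and 8.41 FPKM untreated and 6.23, 6.59, 10.1 and 9.36 with IFN-γ. Both varied far more between libraries than HAGLR did. HOXC-AS1 was at 1.91, 0.161, 0.585 and 0.390 FPKM untreated and 0.170, 0.225, 0 and 0.607 with IFN-γ. The library kit does not mark strand, so reads from an antisense RNA and its partner cannot be told apart where they overlap. HOXD-AS2 covers 10.7% of the exonic bases of HOXD3, and an antisense model with no value here, AC009336.3, 50.1% of those of HOXD1.

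Most partners of HOX proteins were present. Of 9 tested cofactors 2 fell and none rose (22.2% called). MEIS3, a DNA-binding partner of HOX proteins, fell from 15.1 ± 0.552 to 13.7 ± 0.363 FPKM (log2 change -0.15, limma adjusted p = 0.0382). MEIS3 lost its call when any library other than IFN-γ replicate 4 was left out (limma adjusted p = 0.0563 to 0.108). MEIS2, the most abundant PBX or MEIS gene, was at 75.2 and 81.1 FPKM and did not pass. Other homeobox genes on a further list, of the TALE and ParaHOX families, had 4 tested members and no limma call (1 at an unadjusted p under 0.05), with TGIF2 at 16.3 and 17.5 FPKM and TGIF1 at 4.33 and 4.70. 6 of its 15 members, such as PDX1 and GSX2, were at 0 in every library.

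Among chromatin regulators of HOX clusters, 6 of 33 tested Polycomb subunits rose (18.2%) and none fell, where 13.3% of all genes tested rose. Of 19 tested subunits of PRC1, the complex that ubiquitinates histone H2A, 4 rose and none fell (21.1% called, median log2 change 0.02). PCGF5, a subunit that defines a variant PRC1, rose from 7.36 ± 0.50 to 18.2 ± 0.248 FPKM (log2 change 1.30, SE 0.05, limma adjusted p = 4.0e-08). PHC3, a subunit that lets PRC1 cluster, was at 11.5, 11.7, 11.6 and 12.2 FPKM untreated and 18.0, 18.2, 17.4 and 13.9 with IFN-γ, where replicate 4 was the lowest (log2 change 0.51, limma adjusted p = 0.00122). PCGF1 rose from 34.6 ± 1.39 to 43.0 ± 5.29 FPKM, a call lost without untreated replicate 4 (limma adjusted p = 0.0536), and PHC2 from 22.9 ± 0.739 to 26.1 ± 1.03. Of 14 tested subunits of PRC2, which methylates histone H3 at lysine 27, 2 rose and none fell (14.3% called). These were the accessory subunits JARID2, from 15.9 ± 0.178 to 19.0 ± 1.13 FPKM, and MTF2, from 20.7 ± 0.621 to 24.5 ± 0.475. The core subunits EZH2, at 11.4 and 11.6 FPKM, and SUZ12, at 19.3 and 19.1, did not pass. In TPM without short RNA genes the calls of PHC2, JARID2 and MTF2 were lost (limma adjusted p = 0.327, 0.207 and 0.0922), and that of PHC2 also with quantile normalization (limma adjusted p = 0.0602).

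Of 21 tested Trithorax genes and histone H3 lysine 27 demethylases limma called none (2 at an unadjusted p under 0.05, median log2 change -0.06). The most abundant, PSIP1 and DPY30, were at 75.6 and 75.6 FPKM and at 40.2 and 45.1 FPKM. Of 11 tested genes of CTCF and cohesin, which fold the clusters into loops, 1 rose (9.09%). This was MAZ, a zinc finger protein that acts beside CTCF, from 73.6 ± 2.93 to 84.2 ± 2.82 FPKM (log2 change 0.19, limma adjusted p = 0.00724), while the cohesin subunit RAD21 stood at 97.8 and 94.1. The call of MAZ was lost in TPM without short RNA genes and with quantile normalization (limma adjusted p = 0.224 and 0.333). Of 7 tested genes of HOX protein turnover and inhibition limma called none (1 at an unadjusted p under 0.05). The ubiquitin ligase subunits DDB1 and RBX1 were the highest, at 90.7 and 85.1 FPKM and at 68.7 and 83.6.

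Retinoic acid, a vitamin A derivative, opens HOX clusters in the embryo. Of 10 tested retinoid and upstream regulators 2 fell and none rose (20.0% called, near the 22.3% of all genes tested, median log2 change 0.02). CRABP2, which carries retinoic acid to its receptors, was at 148, 146, 141 and 146 FPKM untreated and 84.3, 85.5, 95.4 and 116 with IFN-γ (log2 change -0.62, SE 0.09, limma adjusted p = 5.6e-04). ALDH1A3, an enzyme that makes retinoic acid, was at 5.97, 6.19, 6.27 and 6.07 FPKM untreated and 3.71, 4.29, 3.09 and 3.28 with IFN-γ (-0.76, SE 0.10, limma adjusted p = 2.6e-04). In both genes all IFN-γ libraries were below all untreated ones. The receptors RARA, RARB, RARG, RXRA and RXRB were not called. CYP26A1, which degrades retinoic acid, reached at most 0.0710 FPKM, and the caudal genes CDX2 and CDX4 were at 0 in every library.

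Of 10 tested genes that flank the clusters, 1 rose and 1 fell (20.0% called). CALCOCO2, an autophagy receptor beyond the HOXB end, rose from 9.02 ± 0.270 to 20.0 ± 0.83 FPKM (log2 change 1.14, limma adjusted p = 2.9e-08), while 8 of the 10 HOXB genes were listed at 0 in both groups. KIAA1715, which lies beside HOXD, fell from 20.8 ± 0.676 to 16.9 ± 0.558 FPKM (-0.30, limma adjusted p = 6.0e-04). MTX2, on the other side of HOXD, was at 36.3 and 39.6 FPKM and did not pass. In TPM the changes of KIAA1715, CRABP2 and ALDH1A3 stood at 0.51, 0.18 and 0.024, before the shift of all genes by 0.79 is taken off. Over all 10 lists of regulators, cofactors and noncoding RNAs named above, 13 of 109 tested genes were called (11.9%), where 22.3% of all genes tested were. Without IFN-γ replicate 4 it was 23 of 108 (21.3%), where 3855 of 13609 genes were called (28.3%).

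**Figure D5:**
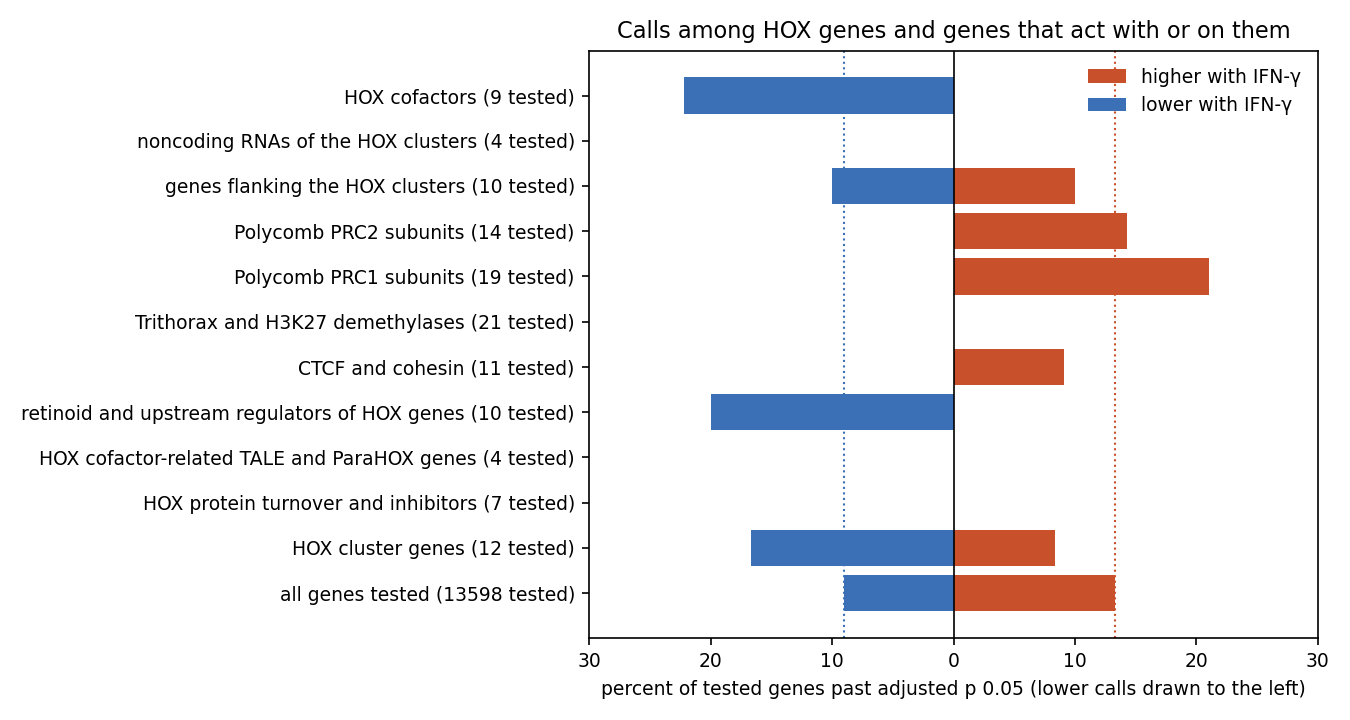
Percent of tested genes past a limma adjusted p of 0.05 in each list, with higher calls drawn to the right and lower calls to the left. Dotted lines mark the shares over all 13598 genes tested, 13.3% higher and 9.05% lower. The number of genes tested stands beside each name.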

How the data were processed

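RNA-seq of 8 libraries, 4 untreated and 4 with IFN-γ, was used, grouped by sample title. Per the labels' protocols, each library came from 1 µg of TRIzol-extracted RNA depleted of ribosomal RNA and was read as pairs of 150 nt. The deposited values are FPKM per gene. Per the submitters' processing notes they were made with TopHat2 and Cuffdiff on hg38. The sources used here give no version, option or annotation. No counts were used.

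Genes reaching a mean of 0.5 FPKM were compared as log2(FPKM + 0.1) with limma 3.58.1 in R 4.3.3, with a variance trend, two-sided, Benjamini-Hochberg adjusted over all 13598 genes. Genes named were all tested HOX members and tested cluster noncoding RNAs, up to 4 called genes per list by size of change, and the 2 highest of a list with fewer than 2 calls. The members and lists were chosen with earlier results of these data known. MEIS2, EZH2, SUZ12, MTX2, HAND2, GATA3, MYCN, THY1, DCN, the retinoid receptors and other genes given at or near 0 were named after their values were seen. Some items are counted in the lists but not reported here. Depth was inferred as about 13.89 to 20.23 M fragments per library from the steps of FPKM values under 0.15, taken as whole multiples of 1 fragment. The sample labels name a target of 100 M reads per library, and the difference was not examined. All numbers of fragments given here rest on the inferred depth. Lengths and positions came from GENCODE release 29. The test was tried on simulated data for IFN-γ against untreated (13598 genes, 50 changed at each size). It found 50% of changes of 1.25-fold, 68% of those of 1.5-fold and 96% of those of 2-fold. Of 165 calls, 8 were false (4.85%). Far fewer genes were changed there than were called in the data, so these shares need not hold for the data. Alternatives covered the pseudocount, the filter, the scaling, the variance model, the replicate block and each library left out. The leave-one-out of the paralog ratios was added after seeing the data.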

Additional observations from a re-analysis of the deposited data

Results flagged for a closer look

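In 5 of 70 groups of 4 libraries, 1 library lay far from the other 3 for its gene. Chance does this in about 1 in 20 groups. HOXD9 was at 8.23 FPKM in IFN-γ replicate 3 and at 7.40 to 7.50 in the other IFN-γ libraries. Without it the fall was called as well. HOXD13 was at 1.25 FPKM in untreated replicate 4 and at 0.533 to 0.655 in the others. HOXD-AS2 was at 4.67 FPKM in untreated replicate 3 and at 8.21 to 8.43 in the others. JARID2 was at 17.3 FPKM in IFN-γ replicate 4 and at 19.3 to 19.6 in the others. RBX1 was at 115 FPKM in IFN-γ replicate 4 and at 71.0 to 76.7 in the others.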

How the results depend on the processing

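HOXD4 kept its direction and its call under all 19 alternatives, at 0.33 to 1.22 (log2). The call of HOXD9 was lost in TPM only. That of HOXC8 was lost in TPM and without untreated replicate 2 or 3. In TPM, 9462 genes of the table were called (9442 higher, 20 lower), 9 HOX genes and 88 genes of the regulator lists, all of these higher. The TPM changes that turned positive were 0.75 for HOXC6, 0.63 for HOXC8, 0.78 for HOXC9, 0.70 for HOXD3, 0.51 for HOXD9, 0.45 for HAGLROS, 0.66 for MEIS3, 0.51 for KIAA1715, 0.75 for RAD21, 0.024 for ALDH1A3, 0.18 for CRABP2 and 0.71 for DDB1, where the median of all genes stood at 0.79. With quantile normalization the table had 1470 higher and 2564 lower calls, against 1809 and 1230, and the regulator lists 28 (6 higher, 22 lower). In TPM without short RNA genes the table had 1142 and 1767, and the lists 4 higher and 9 lower, against 8 and 5. Quantile normalization put HOXC4 at -0.093, HOXC5 at -0.015, HOXD1 at -0.077 and PSIP1 at -0.11. TPM without short RNA genes put HOXC4 at -0.089, HOXC5 at -0.074, HOXD1 at -0.058, HAGLR at -0.034 and PSIP1 at -0.090, and median-of-ratios scaling put HOXC4 at -0.00028 and PSIP1 at -0.0017. None of these was called before. The cause was not tested. With 1 library left out at a time, 2336 to 3855 genes, 2 to 4 HOX genes and 11 to 23 genes of the lists were called. Changes that crossed 0 ranged from -0.059 to 0.076 for HOXC4, -0.083 to 0.090 for HOXC5, -0.073 to 0.063 for HOXC9, -0.10 to 0.29 for HOXD1, -0.017 to 0.35 for HOXD13, -0.079 to 0.24 for HOXD-AS2, -0.61 to 0.058 for HAGLROS and -0.012 to 0.026 for PSIP1. The paralog ratios changed by 0.37 to 0.46 in group 4, 0.28 to 0.43 in group 8 and -0.34 to -0.21 in group 9.

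Libraries with the same replicate number did not deviate together (r = -0.03 to 0.08), so the numbers were not taken as pairs. A fit with the replicate number as a block called 2656 genes, 3 HOX genes and 12 genes of the lists. MEIS3 was not called there (limma adjusted p = 0.0800). 2 of 4 numbers matched their own partner best.

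Genes such as HOXD1, HOXD13, HOXD11 and HOXC10 had under 50 inferred fragments in every library, and HOXD10 had 40.2 to 65.4. The part of depth in their spread was not tested. The table holds no counts for a count test.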
